A study of Mus musculus with 16 samples.

Results

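A list of 10 genes of nucleic acid sensing was followed in CD45+ cells sorted from irradiated and untreated mouse tumors. The list held the DNA sensor cGAS (Mb21d1), its adaptor STING (Tmem173), the RNA helicases RIG-I (Ddx58), MDA5 (Ifih1) and LGP2 (Dhx58), their adaptor MAVS (Mavs), the Z-form nucleic acid sensor Zbp1, the exonuclease Trex1, the kinase Tbk1 and the transcription factor Irf3. The rows were taken by gene symbol, from a list drawn up with earlier results of these data known, and all 10 of 10 were found among the 31053 features of each library. C57BL/6J mice bore subcutaneous tumors on the right flank from 1 of 2 lines. MC38 derives from a colorectal carcinoma. Panc02-SIY derives from a pancreatic adenocarcinoma and carries the SIY model antigen. Each line gave an untreated group and a group that received 12 Gy and was harvested after 24 h, with 4 libraries in each of the 4 groups and 16 in all. Every library was a 10x 3' library of live sorted CD45+ cells, from tumors grown from implanted cell lines rather than spontaneous ones. The study's methods give an age of 6 to 8 weeks for its C57BL/6 mice. The series text gives 4 animals per group and the study's methods give 3, and p-values therefore measure the spread between these libraries.

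Cells detect misplaced nucleic acid through a small set of sensors. cGAS binds double-stranded DNA and makes a cyclic dinucleotide that activates STING, while RIG-I and MDA5 bind double-stranded or modified RNA and signal through MAVS. Both routes meet at TBK1, which phosphorylates IRF3 to turn on type I interferon genes. Interferon in turn raises the transcription of several sensors, among them Ddx58, Ifih1, Dhx58 and Zbp1, while Tbk1, Irf3 and Mavs are known as largely constitutive components. In tumors this pathway is known for its part in the response of myeloid cells to dying cells after radiation.

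The libraries differed in ways that touch every comparison between tumors. MC38 libraries held between 3240877 and 10121198 unique molecular identifiers (UMIs), and Panc02-SIY libraries between 5327146 and 43776342. Pairs of MC38 libraries shared a median of 964.5 cell barcodes, or 83.3% of the smaller library, against 82 (5.54%) for pairs of Panc02-SIY libraries and 0 across tumors. Results are therefore given also with each barcode kept only in the library of its tumor where it had the most UMIs, which left 2632 of 9843 MC38 barcodes. Barcodes richer in another library held 13.6% to 57.2% of the UMIs of an MC38 library and at most 0.975% of those of a Panc02-SIY one. The MC38 libraries can thus not be taken as independent, and SEs and p-values that use all their barcodes may be too small. The source of the sharing was not tested. Tumor line, depth and barcode sharing cannot be told apart in the comparisons of MC38 with Panc02-SIY. In summed libraries, fewer cells of a type and less RNA per cell cannot be told apart either. Cdkn1a, a p53 target that radiation induces, was at 443 to 619.8 CPM (the gene's UMIs scaled to a common library total) in untreated and 1181 to 1467 in irradiated MC38 libraries, and at 45.2 to 67.5 and 305 to 500.1 in Panc02-SIY, so it was higher in every irradiated library than in every untreated one of the same tumor.

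Detection of the members varied widely. Zbp1 had the most UMIs over all libraries (37196), followed by Ifih1 (12379), Tmem173 (12225) and Ddx58 (11508). Tbk1 had 7705 UMIs, Dhx58 had 6465, Irf3 had 5945 and Mb21d1 had 3788. Mavs was the scarcest of the tested members, with 1825. Trex1 had 1 UMI in all, in an untreated MC38 library, and entered no test. In the GENCODE annotation of GRCm38 the Trex1 gene (chr9:109057933-109059734) lies wholly inside Atrip (chr9:109057933-109074124) on the same strand and ends at the same 3' base, and Atrip had 1802 UMIs. Reads of both genes cannot be told apart by a 3' library, so the level of Trex1 RNA was not measured here. Irf3 and Dhx58 overlap a gene on the opposite strand (Bcl2l12, with 3164 UMIs, and Dhx58os, with 63).

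To show what the start sites of the RNA helicases hold, promoters from RefSeq (GRCm38.p6, from 250 bases before to 50 bases after each start site) were searched on both strands for the core of the interferon-stimulated response element, which reads GAAA, any 2 bases and a second GAAA. Promoters of Mb21d1, Ddx58, Ifih1, Mavs, Tbk1, Irf3 and Trex1 were in the table. Those of Tmem173, Zbp1 and Dhx58 were not used here. The core occurred in Ddx58 and Ifih1, in no other member searched, and in 3.99% of 27025 genes with a promoter in the table. Both genes rose after radiation in both tumors, and Zbp1, the other member that did so, was not searched. The second motif searched, the core of the gamma-activated sequence (TTC, any 3 bases, GAA), occurred in no member promoter and in 9.55% of genes. The windows around both matches are shown 5' to 3' on the strand of the gene, with the matched 10 bases in capitals. In Ddx58 (chr4:40239804-40239833, minus strand) the match covers bases 3 to 12 of the transcript and reads as the motif on the opposite strand, and in Ifih1 (chr2:62646206-62646233, minus strand) it covers bases 33 to 42 on the gene's own strand.
Ddx58: cctgaggcagTTTCGATTTCctatggccag
Ifih1: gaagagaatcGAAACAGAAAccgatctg
A match of letters is a description of the sequence and says nothing of what binds there.

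Radiation raised 3 of the 9 tested members in the CD45+ cells of MC38 tumors. These were Ddx58, Ifih1 and Zbp1, each 1.325 to 1.459 times the untreated level, while the DNA sensing axis of cGAS and STING stayed within the spread between libraries. A gene was called when its adjusted p was below 0.1 and its fold change above 1.3, the thresholds of the study, in edgeR's quasi-likelihood test on UMIs summed per library. At this rule 2.74% of the 12615 genes tested were called as higher in irradiated MC38. Levels below are CPM after TMM scaling, in replicate order.

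Zbp1, which senses Z-form nucleic acid and can start necroptosis, was at 252, 289.5, 244 and 255 CPM in the untreated MC38 libraries. After 12 Gy it was at 369, 421, 373 and 355 CPM. All 4 irradiated libraries lay above all 4 untreated ones, with a log2 fold change of 0.55 (SE 0.10, adjusted p = 0.00874). Ifih1, the sensor of long double-stranded RNA, was at 92.1, 108, 105 and 104.5 CPM without and at 132, 149.7, 139.7 and 133 CPM with radiation. The groups again did not overlap, and the log2 fold change was 0.44 (SE 0.10, adjusted p = 0.0235). Ddx58, the sensor of short RNA with a 5' triphosphate, was at 55.0, 64.4, 61.4 and 55.4 CPM in untreated and at 73.0, 81.7, 78.8 and 78.8 CPM in irradiated libraries. Its groups did not overlap either, and its log2 fold change was 0.41 (SE 0.10, adjusted p = 0.0330). This change lay close to the fold threshold, and the call was lost without untreated MC38 replicate 1 or replicate 4.

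Dhx58, the helicase without a signaling domain that modulates the other helicases, was at 62.2, 78.3, 77.6 and 72.7 CPM in untreated and at 70.9, 113, 90.3 and 86.1 CPM in irradiated MC38 libraries. Replicate 1 of the irradiated group lay inside the untreated range, and the log2 difference of 0.31 (SE 0.15) was not called (adjusted p = 0.306). The DNA sensor Mb21d1 averaged 27.3 ± 2.90 CPM (SD, n = 4) in untreated and 29.7 ± 3.29 CPM in irradiated tumors. Its adaptor Tmem173 averaged 84.6 ± 6.98 and 85.5 ± 5.03 CPM, a log2 difference of 0.01 (SE 0.09). Tbk1 averaged 38.6 ± 1.97 and 42.6 ± 3.64 CPM, and Irf3 23.7 ± 0.635 and 22.9 ± 2.04 CPM. Mavs averaged 11.3 ± 1.87 and 10.1 ± 1.79 CPM. For each of these 5 genes the untreated and irradiated libraries overlapped.

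When repeated barcodes were kept in their richest library alone, the 3 rises in MC38 were larger. The log2 fold change became 0.59 for Ddx58 (adjusted p = 0.00265), 0.58 for Ifih1 (adjusted p = 0.00408) and 0.74 for Zbp1 (adjusted p = 0.00125). Dhx58 stood at 0.38 (adjusted p = 0.238) and Tmem173 at 0.00 on the same scale.

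**Figure D1:**
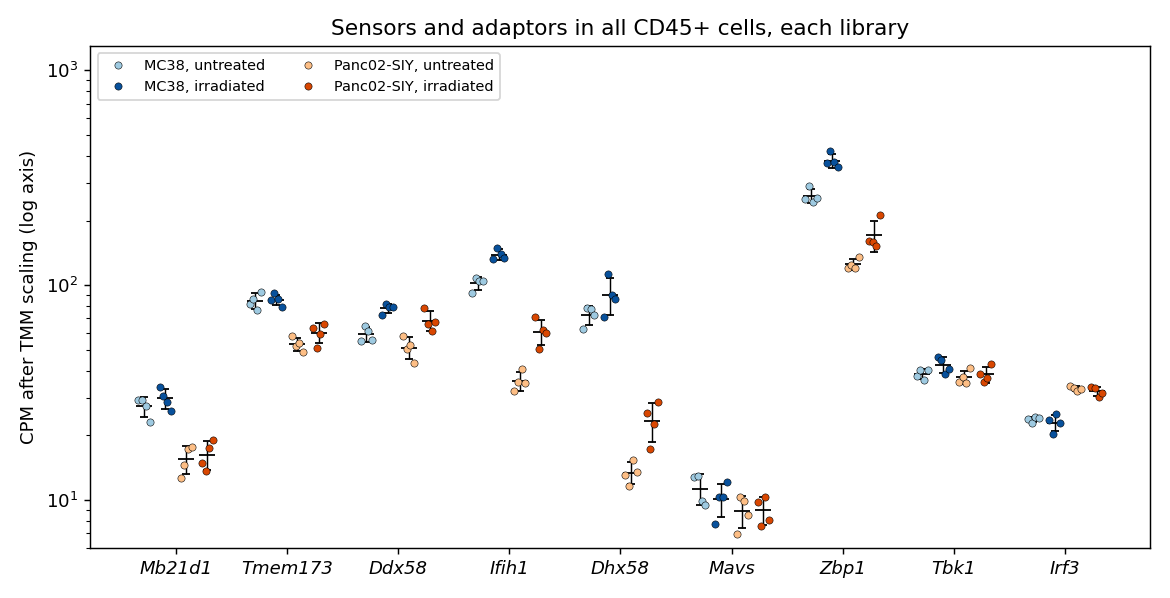
CPM after TMM scaling (log axis) of the 9 tested members in all CD45+ cells, with 1 point for each of the 16 libraries and bars for the mean and SD of the 4 libraries of a group. Zbp1 was the most abundant member in every group, from 120 CPM upward, and Mavs the least abundant, at or below 12.97 CPM.

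In Panc02-SIY tumors 4 members rose after radiation, the same 3 genes and Dhx58. At the same rule 8.57% of all tested genes were called as higher in that tumor. Ifih1 was at 32.1, 35.4, 40.7 and 34.9 CPM in untreated and at 70.9, 50.5, 61.8 and 59.9 CPM in irradiated libraries. That was a log2 fold change of 0.76 (SE 0.10, adjusted p = 1.56e-04) with no overlap between the groups. Dhx58 was at 13.1, 11.6, 15.4 and 13.5 CPM before and at 25.5, 17.2, 22.6 and 28.5 CPM after radiation. Its groups were also separate, and its log2 fold change of 0.81 (SE 0.16, adjusted p = 0.0022) was the largest of the members.

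Zbp1 was at 121, 124.5, 119.8 and 136 CPM in untreated and at 160.3, 158, 152 and 213 CPM in irradiated Panc02-SIY libraries. Replicate 4 of the irradiated group stood apart from the other 3. The log2 fold change was 0.45 (SE 0.10, adjusted p = 0.0052), and without that replicate the gene was not called. Ddx58 was at 58.2, 50.2, 52.9 and 43.5 CPM in untreated and at 78.7, 66.2, 61.5 and 67.6 CPM in irradiated libraries. The groups did not overlap and the log2 fold change was 0.42 (SE 0.09, adjusted p = 0.00507), but the call was lost without untreated replicate 4 or without irradiated replicate 1. Mb21d1 averaged 15.6 ± 2.36 and 16.3 ± 2.47 CPM, Tmem173 averaged 53.1 ± 3.81 and 60.1 ± 6.52 CPM (log2 difference 0.18, SE 0.09, adjusted p = 0.169), and Irf3 averaged 33.1 ± 0.729 and 32.2 ± 1.57 CPM. Tbk1, at 37.3 ± 2.65 and 38.4 ± 3.29 CPM, and Mavs, at 8.94 ± 1.54 and 8.96 ± 1.32 CPM, were not called.

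The mix of cells moved with these rises. Neutrophils made up 5.34% to 9.66% of barcodes in untreated and 7.77% to 14.6% in irradiated Panc02-SIY libraries, and monocytes 0.992% to 4.21% and 5.16% to 8.54%. The 9 neutrophil markers, all detected in both groups, summed to 750.5 to 2437 CPM in untreated and 1423 to 3574 CPM in irradiated libraries. The 7 monocyte markers found in the files (of 8 listed), all detected, summed to 1059 to 1425 and 1685 to 2410 CPM. T cells made up 23.5% to 33.4% and 12.7% to 26.7% of barcodes. When the barcodes of the neutrophil and monocyte classes were left out, a choice made after the data were seen, the log2 fold change fell to 0.30 for Ddx58 (adjusted p = 0.0333), to 0.36 for Ifih1 (adjusted p = 0.0125) and to 0.16 for Zbp1 (adjusted p = 0.403). None of those 3 then passed both thresholds, and Dhx58 alone was called, at 0.44 (adjusted p = 0.0862). The same step left the MC38 values at 0.43 for Ddx58, 0.43 for Ifih1 and 0.55 for Zbp1, all still called. In MC38 libraries neutrophils were at most 0.3425% and monocytes at most 1.19% of barcodes, so the step took out little there. An unnamed MC38 cluster, number 6, had the monocyte markers Ly6c2, Ccr2, Chil3 and Plac8 raised and stayed in. The step could therefore not test the mix of cells in MC38.

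**Figure D2:**
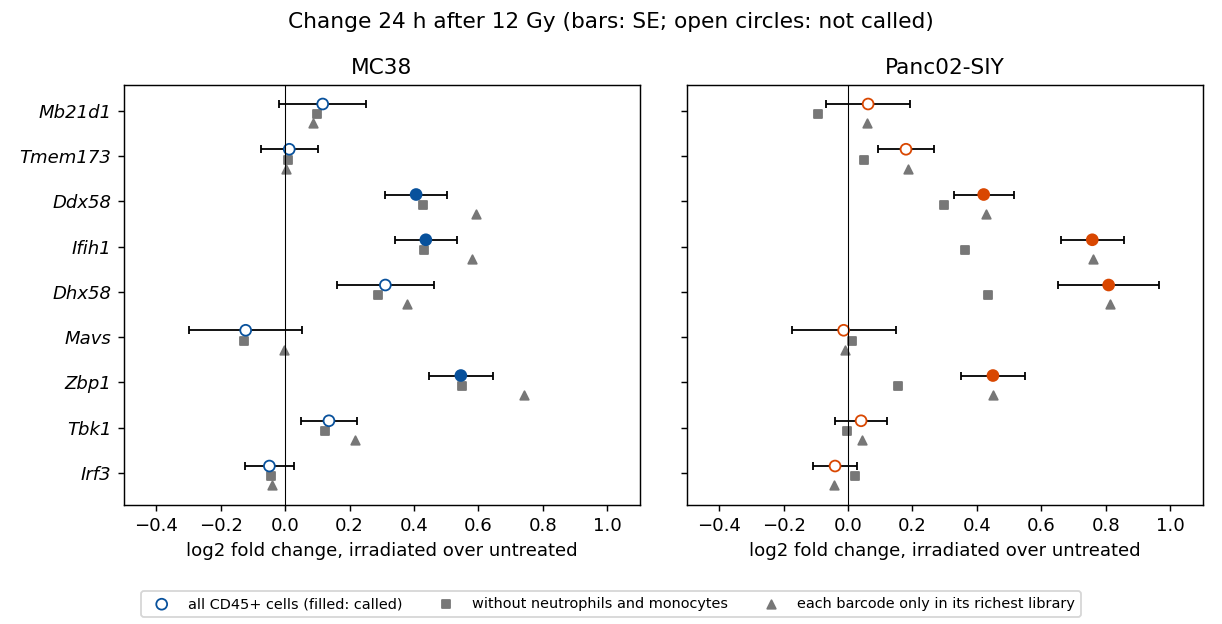
Log2 fold change of each member 24 h after 12 Gy in all CD45+ cells (circles, with SE; filled where called), without neutrophils and monocytes (squares) and with repeated barcodes kept once (triangles). In Panc02-SIY the squares of Ifih1, Dhx58 and Zbp1 lie well to the left of their circles. In MC38, where leaving out these classes removed few barcodes, the circles and squares of Ddx58, Ifih1 and Zbp1 lie close together.

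The radiation effect itself was compared between tumors with an interaction term over all 16 libraries. Of the 9 members, 0 were called by edgeR and 0 by DESeq2, against 2.65% of all genes, and 2 had an unadjusted p below 0.05. These were Ifih1, whose effect was smaller in MC38 by a log2 difference of -0.32 (SE 0.14, adjusted p = 0.286), and Dhx58, with a difference of -0.50 (SE 0.22, adjusted p = 0.297). The differences for Ddx58 (-0.01, SE 0.13) and Zbp1 (0.10, SE 0.14) were within their errors. A difference in the response of these genes between the tumors was thus not detected with 4 libraries per group.

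Between untreated tumors 6 of the 9 members were called, 5 of them higher in MC38 and 1 lower. That share is near the background, since 63.7% of all genes were called in either direction, 3785 of 12615 as higher and 4247 as lower. Dhx58 showed the widest gap, at 72.7 ± 7.42 CPM (SD, n = 4) in MC38 and 13.4 ± 1.55 CPM in Panc02-SIY, a log2 fold change of 2.44 (SE 0.16, adjusted p = 2.31e-09). Ifih1 was at 102 ± 7.13 against 35.8 ± 3.61 CPM (log2 fold change 1.51, SE 0.10), and Zbp1 at 260.3 ± 19.98 against 125 ± 7.37 CPM (1.05, SE 0.10). Both members of the DNA route were higher in MC38 as well. Mb21d1 stood at 27.3 against 15.6 CPM, a log2 fold change of 0.79 (SE 0.13, adjusted p = 5.94e-05), and Tmem173 at 84.6 against 53.1 CPM, one of 0.67 (SE 0.09, adjusted p = 4.64e-06). Irf3 went the other way, at 23.7 ± 0.635 CPM in MC38 and 33.1 ± 0.729 CPM in Panc02-SIY (log2 fold change -0.48, SE 0.07, adjusted p = 2.20e-05). The groups did not overlap for any of these 6 genes. The share of all genes without overlap is not given here, for this or any other comparison. The separation of these 6 can therefore not be set against a background. Ddx58 (0.21, SE 0.09), Mavs (0.32, SE 0.17) and Tbk1 (0.04, SE 0.08) were not called.

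After radiation the same 6 genes were called in the same directions, where 63.6% of all genes were called (3996 as higher and 4026 as lower in MC38). The log2 fold change of MC38 over Panc02-SIY was 1.94 (SE 0.15) for Dhx58, 1.19 (SE 0.10) for Ifih1, 1.15 (SE 0.10) for Zbp1, 0.85 (SE 0.13) for Mb21d1, 0.51 (SE 0.09) for Tmem173 and -0.48 (SE 0.07) for Irf3. This comparison and the untreated one use different libraries. The cells differed too: the macrophage class held 61.7% to 67.1% of barcodes in MC38 libraries and 1.42% to 4.53% in Panc02-SIY, while T cells held 1.89% to 2.67% and 12.7% to 33.4%. These macrophage shares leave out clusters that stayed unnamed although C1qa, C1qb and Cd68 were raised. In Panc02-SIY, clusters 5, 9 and 17 held 1026, 610 and 485 untreated and 593, 476 and 121 irradiated barcodes. The dendritic cell markers Xcr1, Batf3 and Cadm1 were raised in them too. In MC38 they held at most 12 barcodes each per group, and cluster 6 held 740 untreated and 757 irradiated ones.

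Where the members were expressed was read from 7 cell classes, found by clustering the barcodes without the 10 members and named by marker genes. These levels are descriptions with no test, as plain CPM per library. Ranks hold among the named classes only, since unnamed clusters held 26.1% to 44.3% of the barcodes of a Panc02-SIY library. In Panc02-SIY, where 7 classes had values in all 8 libraries, neutrophils had the highest levels of the RNA helicases that sense ligand. Ddx58 reached 191 ± 31.5 CPM there (SD, n = 8 libraries), above 89.3 ± 13.5 CPM in NK cells, with no overlap between both classes. The next classes, monocytes (78.0 ± 23.2 CPM) and B cells (76.0 ± 35.4 CPM), did not differ from NK cells beyond their spread. Conventional dendritic cells (cDCs), which present antigen to T cells, had the lowest Ddx58, 27.8 ± 16.1 CPM. Ifih1 fell from 208 ± 36.8 CPM in neutrophils over monocytes (137 ± 49.9), macrophages (101.5 ± 56.6) and cDCs (63.3 ± 33.9) to T cells (22.2 ± 10.2), NK cells (17.3 ± 7.34) and B cells (10.96 ± 8.73). Neighbors in that order overlapped, but the highest class was 18.99 times the lowest.

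Zbp1 was at 387 ± 73.7 CPM in the same granulocytes and at 362 ± 128 CPM in monocytes, which did not differ beyond their spread. The other 5 classes lay between 90.9 and 175 CPM. Dhx58 was highest in monocytes (61.9 ± 19.9 CPM), then cDCs (37.3 ± 23.4), macrophages (34.9 ± 14.7) and neutrophils (28.2 ± 13.03), then NK (10.5 ± 4.82), T (8.27 ± 3.08) and B cells (7.38 ± 11.6). The DNA route was arranged differently. Tmem173 was lowest in neutrophils, 14.4 ± 8.55 CPM, against 46.8 ± 25.2 to 99.2 ± 33.2 CPM in the other classes, with monocytes first and cDCs (74.0 ± 23.2) second. Mb21d1 was likewise highest in monocytes (36.1 ± 9.15 CPM), and it was lowest in B cells, at 1.06 ± 3.00 CPM, with 1 UMI in all and 7 of the 8 libraries at 0. Mavs, the adaptor of both helicases, was highest in NK cells (14.7 ± 4.24 CPM) and lowest in neutrophils (1.01 ± 1.34 CPM), the class with the most Ddx58 and Ifih1. Irf3 ranged from 29.6 ± 13.3 CPM in neutrophils to 42.8 ± 7.81 CPM in NK cells, and Tbk1 from 26.9 ± 5.78 CPM in cDCs to 60.4 ± 12.0 CPM in neutrophils. Some unnamed clusters had higher means than every named class. In cluster 20, Tmem173 averaged 128 ± 32.3 and Irf3 55.7 ± 13.4 CPM (n = 8), and in cluster 9 Mavs averaged 17.4 ± 6.44 CPM (n = 7). Summed over all libraries, cluster 17 had 49.6 CPM of Mb21d1 and the monocyte cluster 37.3 CPM.

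In MC38, 4 classes had enough barcodes in all 8 libraries. The order of lymphoid and myeloid classes was alike for Ifih1, at 101 ± 16.1 CPM in macrophages and 100.3 ± 32.0 CPM in cDCs against 31.7 ± 19.4 CPM in NK cells and 31.6 ± 20.3 CPM in T cells. Dhx58 was at 71.1 ± 13.6 and 69.7 ± 19.8 CPM in macrophages and cDCs, and at 14.7 ± 12.7 and 7.71 ± 5.59 CPM in T and NK cells. Ddx58 was highest in NK cells (84.6 ± 16.4 CPM), with 53.7 ± 7.70 CPM in macrophages. The MC38 barcodes of the NK class were mostly of cluster 18, where the T cell markers Cd3d, Cd3g, Trac, Trbc2 and Cd8b1 were raised too. Zbp1 was highest in macrophages (274.5 ± 53.9 CPM). A further MC38 cluster, number 6, was led by Ccl12, Ifit3, Ms4a4c and Cxcl10. Macrophage markers were the most fully raised there, with monocyte markers beside them. The monocyte marker Chil3 was among the leading genes and no macrophage marker was, so the cluster stayed unnamed. It had 589 ± 62.7 CPM of Zbp1, 251 ± 23.2 of Ifih1, 146 ± 24.2 of Dhx58 and 138 ± 29.7 of Ddx58, each above the mean of the 4 named classes in MC38. After radiation 0 of 7 members were called there by edgeR, with 0 at an unadjusted p below 0.05 and 0.102% of genes called. Its 1502 barcodes in all libraries shrank to 39 when repeated barcodes were kept once, so it consists almost wholly of repeated barcodes.

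**Figure D3:**
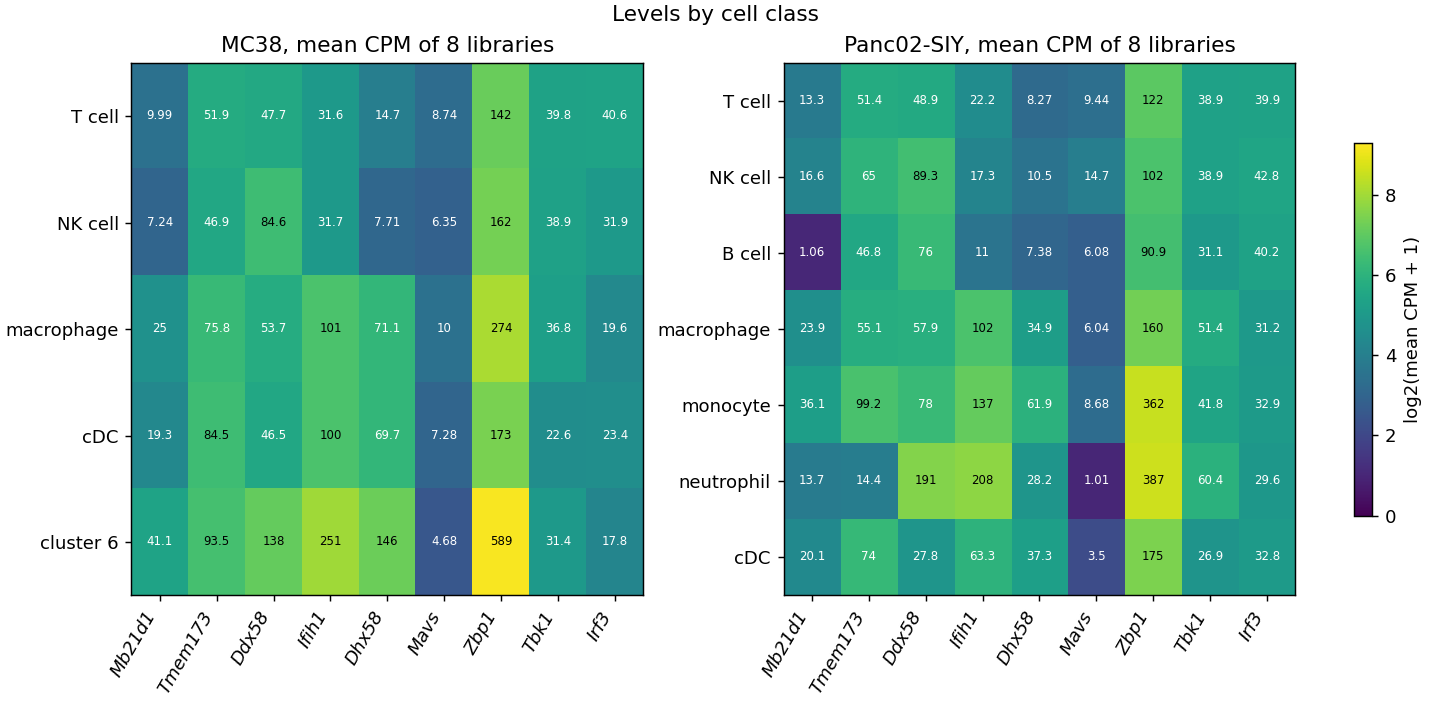
Mean CPM of the 8 libraries of each tumor for 9 members (columns) in each population (rows), with the color on a log2(mean CPM + 1) scale. Among the 7 Panc02-SIY classes drawn, the neutrophil row holds the highest mean Ddx58, Ifih1 and Zbp1 and the lowest mean Tmem173 and Mavs.

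Within macrophages, the same 3 members rose in MC38 as over all CD45+ cells. Zbp1 was at 240.3, 262.5, 229 and 236 CPM in untreated and at 312, 406, 348 and 342 CPM in irradiated MC38 macrophages. Ifih1 was at 81.8, 94.5, 93.9 and 96.7 and at 115, 136, 129 and 125 CPM, and Ddx58 at 49.7, 50.5, 51.6 and 48.2 and at 58.0, 73.4, 67.1 and 66.1 CPM. For all 3 genes every irradiated library exceeded every untreated one. The log2 fold changes were 0.54 (SE 0.18, adjusted p = 0.0692) for Zbp1, 0.46 (SE 0.12, adjusted p = 0.0194) for Ifih1 and 0.41 (SE 0.12, adjusted p = 0.0331) for Ddx58, where 3.50% of the 8979 genes tested in this class were called as higher. These calls depended on single libraries: without untreated replicate 1 or 3, or without irradiated replicate 2, 3 or 4, 0 of the 3 remained, without untreated replicate 2 or 4 only Ifih1 did, and without irradiated replicate 1 Zbp1 was lost, although over all alternatives the log2 values stayed within 0.34 and 0.62 for Ddx58, 0.38 and 0.62 for Ifih1 and 0.44 and 0.73 for Zbp1. Tmem173 (-0.10, SE 0.10) and Mb21d1 (0.07, SE 0.13) were not called in macrophages. The 7 monocyte markers summed to 2041 to 2918 CPM in untreated and 2445 to 3660 CPM in irradiated MC38 macrophages, and their part in the result was not tested.

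The Panc02-SIY macrophage class, which leaves out the unnamed clusters 5, 9 and 17, was small, with 25 to 77 barcodes per library. With the cell filter, the untreated libraries kept 8, 7, 6 and 6 barcodes, too few to repeat the radiation comparison. It came mostly from cluster 15, whereas MC38 macrophages came mostly from clusters 1 and 8. Zbp1 was at 52.8, 175.7, 113 and 72.9 CPM in untreated and at 119, 294, 136 and 233 CPM in irradiated libraries. The groups overlapped, and the log2 fold change of 0.97 (SE 0.31, adjusted p = 0.0910) was called, with 3.19% of genes called as higher. It was lost in 17 of 25 alternatives, among them without any 1 of the 8 MC38 libraries, without untreated Panc02-SIY replicate 1, 3 or 4 and without irradiated replicate 2 or 4. Ddx58 (1.18, SE 0.40, adjusted p = 0.113) and Ifih1 (0.87, SE 0.31, adjusted p = 0.135) were not called, and DESeq2 called 3 members here instead of 1. Monocyte markers were at 415 to 3168 CPM in untreated and 4129 to 4744 CPM in irradiated libraries of this class, all 7 detected, and their part was not tested. The difference of the macrophage radiation effect between tumors was called for 0 of 9 members by edgeR and 0 by DESeq2, with 0 at an unadjusted p below 0.05 and 1.18% of genes called. Cluster 9, outside the named class, was fitted in Panc02-SIY with 3 untreated and 4 irradiated libraries. There 0 of 9 members were called by edgeR, with 0 at an unadjusted p below 0.05. Of all genes, 0.506% were called as higher and 0.590% as lower. Untreated and irradiated means there were 118 ± 22.3 and 121 ± 21.1 CPM for Zbp1. They were 89.8 ± 9.58 and 87.5 ± 24.1 CPM for Ifih1, and 36.6 ± 4.1 and 47.1 ± 9.99 CPM for Ddx58.

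Between tumors, the named macrophage class held more Zbp1, Dhx58 and Tmem173 in MC38 in both arms. Most Panc02-SIY barcodes of this class failed the cell filter, while most MC38 ones passed. Of 29, 52, 25 and 77 untreated Panc02-SIY barcodes, 8, 7, 6 and 6 were left. Of 738, 622, 751 and 849 untreated MC38 barcodes, 599, 504, 596 and 659 were left. The untreated comparison could therefore not be repeated with this filter, nor at resolution 2. The part of barcode quality in these differences was not tested. Untreated, the log2 fold change was 1.26 (SE 0.28, adjusted p = 8.17e-04) for Zbp1, 1.335 (SE 0.39, adjusted p = 0.00745) for Dhx58 and 0.89 (SE 0.26, adjusted p = 0.00814) for Tmem173. Irradiated, they were 0.83 (SE 0.21), 1.18 (SE 0.27) and 0.47 (SE 0.19, adjusted p = 0.0603). The groups did not overlap for these genes, again without a share of all genes to set this against. Of all genes in the class, 24.6% and 23.8% were called as higher in MC38, so 3 of 9 members is not far from the background. The Tmem173 call in irradiated macrophages was lost in 17 of 27 alternatives, among them without any 1 of the 8 MC38 libraries, without irradiated Panc02-SIY replicate 2 or 3 and with repeated barcodes kept once. Ifih1, which differed over all CD45+ cells, was not called in macrophages either untreated or irradiated.

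**Figure D4:**
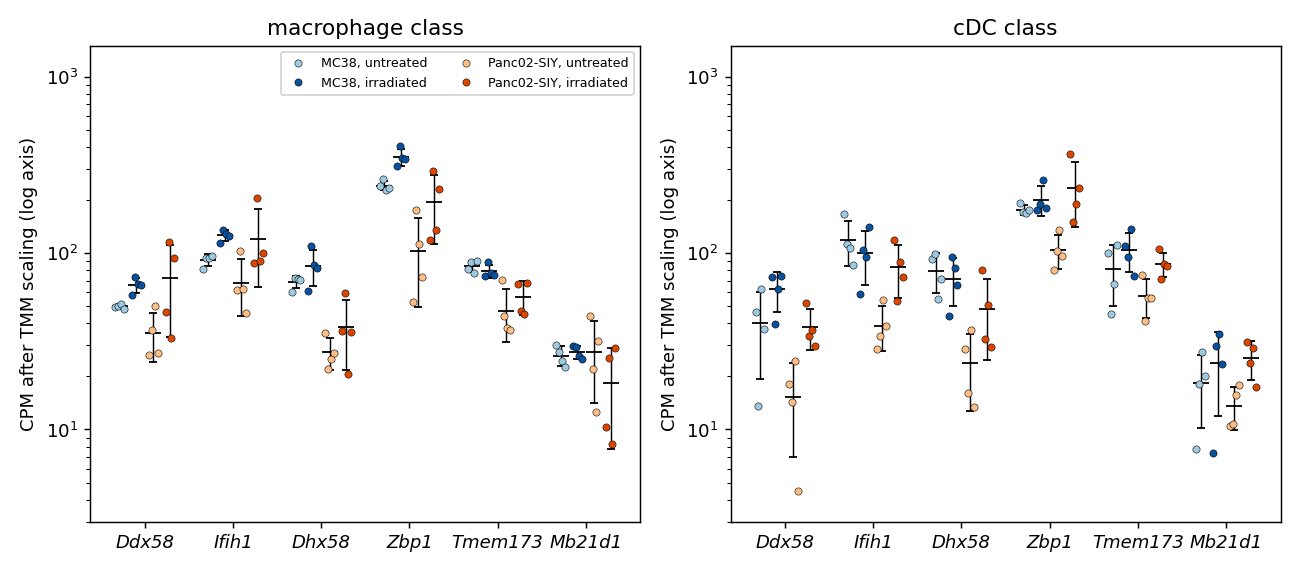
CPM after TMM scaling (log axis) of 6 members in the macrophage class (left) and the cDC class (right), 1 point per library with the mean and SD of each group of 4. In MC38 macrophages Ddx58, Ifih1 and Zbp1 rise without overlap, and in Panc02-SIY cDCs the untreated Zbp1 values (80.6 to 135 CPM) lie below the irradiated ones (151 to 368 CPM).

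In cDCs, which carry tumor antigen to the lymph node, 2 members rose after radiation in Panc02-SIY over the whole class and 0 were called in MC38. The mix of cDC subsets moved with these rises, and neither call held without the DC1-like or the DC2-like barcodes. Zbp1 was at 80.6, 104, 135 and 96.5 CPM in untreated and at 368, 151, 189 and 233 CPM in irradiated Panc02-SIY cDCs. The groups did not overlap, and the log2 fold change was 1.14 (SE 0.22, adjusted p = 0.0159). Ifih1 was at 28.6, 33.9, 54.3 and 38.6 and at 119, 53.4, 89.0 and 73.0 CPM, with 1 irradiated library just below the highest untreated one. Its log2 fold change was 1.03 (SE 0.27, adjusted p = 0.0903), and the call was lost in 11 of 29 alternatives, including without untreated replicate 2 or 4, without irradiated replicate 1 or 3 and with repeated barcodes kept once. These were 2 of 8 tested members, where 1.35% of 6298 genes were called as higher. Ddx58 was at 4.45 to 24.5 CPM in untreated and 29.9 to 52.5 CPM in irradiated libraries, without overlap, but was not called (log2 difference 1.41, SE 0.41, adjusted p = 0.101). An unadjusted p below 0.05 was found for 6 of the 8 members there, each with a positive log2 difference. The share of all genes at an unadjusted p below 0.05 is not given here, for this or any other such count. The 6 of 8 can therefore not be set against a background. The Zbp1 call was also lost when only the 2 Panc02-SIY groups were fitted.

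The cDC class was split into subclusters named by markers. DC1-like barcodes carry Xcr1 and Clec9a, mregDC-like barcodes carry Ccr7 and Fscn1, and the DC2-like subcluster, with Cd209a and Clec10a raised, was led by Cxcl10, with the interferon-induced genes Gbp2 and Gbp7 among its leading genes. Subclusters 1, 7 and 8 also had DC2 markers raised but stayed unnamed, with a macrophage or monocyte marker among their leading genes. Subcluster 1 had 276 of its 309 barcodes from MC38. DC2-like therefore means the Cxcl10-led subcluster here and not all barcodes with DC2 markers. DC2-like barcodes made up 5.56% to 12.1% of cDCs in untreated and 14.7% to 36.0% in irradiated Panc02-SIY libraries, without overlap, and DC1-like ones 35.2% to 68.5% and 27.9% to 36.6%. Since interferon-induced genes helped to form the DC2-like subcluster, more cells of this kind and a response within cDCs cannot be told apart. Zbp1 averaged 291.5 ± 100.8 CPM (SD, n = 4) in untreated and 457.5 ± 206 CPM in irradiated DC2-like barcodes, and 57.4 ± 27.9 and 110.6 ± 62.8 CPM in DC1-like ones, with overlapping libraries in both. Ifih1 averaged 126 ± 56.1 CPM over all 8 Panc02-SIY libraries in DC2-like and 27.0 ± 18.3 CPM in DC1-like barcodes. Leaving out the barcodes of 1 subset before summing, a choice made after the data were seen, changed the calls. Without DC2-like barcodes the log2 change in Panc02-SIY cDCs was 0.54 for Zbp1 (adjusted p = 0.436) and 0.54 for Ifih1 (adjusted p = 0.491), and without DC1-like barcodes it was 0.82 (adjusted p = 0.503) and 0.59 (adjusted p = 0.716).

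In MC38 cDCs, Zbp1 was at 193, 171, 168 and 175 CPM in untreated and 177, 189.7, 259 and 181 CPM in irradiated libraries. Ifih1 was at 166, 113, 108 and 86.1 and at 58.9, 105, 94.7 and 140.3 CPM, with overlapping groups for both genes. Of 8 members, 0 were called by edgeR or DESeq2 and 0 had an unadjusted p below 0.05, where 0.111% of genes were called. Most of these barcodes recur between MC38 libraries. Irradiated MC38 cDCs numbered 66, 58, 69 and 71 per library, and 4, 7, 21 and 27 with repeated barcodes kept once. That was too few to repeat this comparison, which needs at least 10 barcodes in at least 3 libraries of each group. The interaction for the cDC radiation effect called 0 of 8 members by edgeR and 0 by DESeq2, while 3 had an unadjusted p below 0.05: Ifih1 (-1.19, SE 0.39, adjusted p = 0.743), Zbp1 (-0.93, SE 0.32, adjusted p = 0.743) and Dhx58 (-1.06, SE 0.49, adjusted p = 0.792). A difference between the tumors in the cDC response was therefore not shown, and 0.00% of all genes were called. In Panc02-SIY cDCs the monocyte markers stood at 676 to 1338 CPM in untreated libraries, with Vcan at 0, and at 1608 to 1854 CPM in irradiated ones, and their part in the Zbp1 and Ifih1 rises was not tested.

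Over the whole class, untreated MC38 cDCs stood above untreated Panc02-SIY cDCs in 4 members. The log2 fold changes were 1.79 (SE 0.36, adjusted p = 0.0015) for Dhx58, 1.65 (SE 0.43, adjusted p = 0.0113) for Ddx58, 1.56 (SE 0.28, adjusted p = 5.12e-04) for Ifih1 and 0.76 (SE 0.23, adjusted p = 0.0258) for Zbp1, with 13.6% of genes called as higher. The groups were separate for Dhx58, Ifih1 and Zbp1 and overlapped for Ddx58, again without a share of all genes to set this against. The Zbp1 call was lost with repeated barcodes kept once and after thinning to the same mean number of UMIs per barcode in every library, and the Ddx58 call after that thinning. The subsets differed between the tumors. DC1-like barcodes were 22 of 252 untreated cDCs in MC38 and 135 of 253 in Panc02-SIY, while subclusters without a name held 64.2% to 69.7% of cDCs in untreated MC38 libraries and 10.3% to 29.3% in untreated Panc02-SIY ones. Without DC1-like barcodes Dhx58 alone was called (log2 fold change 0.89, adjusted p = 0.0567), and the differences were 0.88 for Ddx58 (adjusted p = 0.102), 0.78 for Ifih1 (adjusted p = 0.119) and 0.29 for Zbp1 (adjusted p = 0.507). Without DC2-like barcodes all 4 remained called and Tmem173 was added. In irradiated cDCs 0 of 8 were called by edgeR or DESeq2, 3 had an unadjusted p below 0.05 and the log2 difference of Zbp1 was -0.17 (SE 0.23), where 31.5% of genes were called. Without DC1-like barcodes Irf3 was called as lower in irradiated MC38 cDCs. Without DC2-like barcodes Ddx58, Ifih1, Zbp1 and Dhx58 were called as higher there. DC2-like barcodes were 81 of 307 irradiated cDCs in Panc02-SIY and 4 of 264 in MC38. Leaving out this Cxcl10-led subcluster thus took barcodes almost only from Panc02-SIY, so those 4 calls cannot show a difference between like cells. In the stricter cDC set, barcodes of these clusters with a UMI of Zbtb46, a transcription factor of the cDC lineage, 4 to 52 barcodes were left per library. There Zbp1 rose in Panc02-SIY from 53.9, 84.5, 89.1 and 100.2 to 412, 171, 209.6 and 241.5 CPM, a log2 fold change of 1.59 (SE 0.30, adjusted p = 0.0159) with no overlap, in a set where 0.397% of genes were called as higher. That call was lost without DC2-like barcodes (0.62, adjusted p = 0.979) and without DC1-like ones (1.29, adjusted p = 0.358). Untreated MC38 exceeded untreated Panc02-SIY for Ifih1 (1.85, SE 0.41, adjusted p = 0.00598) and Dhx58 (1.65, SE 0.43, adjusted p = 0.0237), with 4.48% called as higher, and the Dhx58 call was lost after thinning and without untreated Panc02-SIY replicate 4. Without DC1-like barcodes neither was called. For radiation in MC38, irradiated tumors and the interaction, 0 of 9 members were called in this set by edgeR or DESeq2, with 1, 2 and 2 at an unadjusted p below 0.05 and 0.0843%, 10.8% and 0.00% of genes called.

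**Figure D5:**
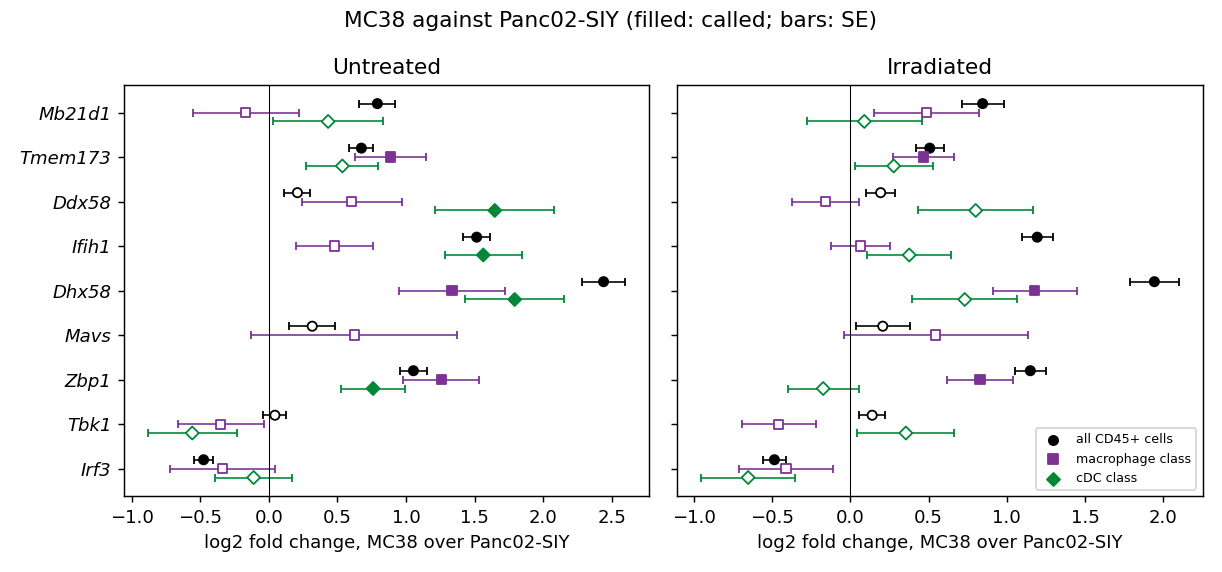
Log2 fold change of MC38 over Panc02-SIY (with SE, filled where called) in all CD45+ cells, macrophages and cDCs, untreated (left) and irradiated (right). The cDC points of Ddx58, Ifih1, Dhx58 and Zbp1 lie right of 0.7 and are called untreated, and none of the cDC points is called after radiation.

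Few members were called in lymphocytes. In Panc02-SIY T cells Dhx58 rose from 5.93, 6.53, 6.69 and 5.48 CPM to 7.91, 9.41, 10.9 and 13.9 CPM with no overlap (log2 fold change 0.85, SE 0.30, adjusted p = 0.0995), the only 1 of 7 tested members to pass, with 3.06% of genes called as higher. The clusters of this class moved too. Cluster 10, with 4.46 CPM of Dhx58 over all libraries, went from 695 to 212 Panc02-SIY barcodes. Cluster 19, with 11.7 CPM, went from 209 to 318, and cluster 2, with 9.66 CPM, from 1957 to 1479. The part of this mix in the rise was not tested. In MC38 T cells, 0 of 7 members were called by edgeR or DESeq2 and 1, Zbp1, had an unadjusted p below 0.05 (log2 difference 0.89, SE 0.33, adjusted p = 0.297), with 0.548% of genes called. Between untreated tumors, irradiated tumors and in the interaction 0 of 7 were called in T cells by edgeR (1, 0 and 0 at an unadjusted p below 0.05, 1, 0 and 0 by DESeq2), where 21.6%, 19.6% and 0.00% of genes were called. In NK cells 0 of 8 members were called after radiation in either tumor by edgeR or DESeq2, with 0 at an unadjusted p below 0.05 and 0.0836% of genes called in MC38 and 3.71% in Panc02-SIY. Untreated NK cells and the interaction also gave 0 of 8 by edgeR, with 0 at an unadjusted p below 0.05, 1 and 0 by DESeq2, and 18.9% and 0.0139% of genes called. Irradiated NK cells of MC38 exceeded those of Panc02-SIY in Ifih1 (1.31, SE 0.45, adjusted p = 0.0278) and Zbp1 (0.77, SE 0.32, adjusted p = 0.0915) and were lower in Mb21d1 (-1.58, SE 0.72, adjusted p = 0.0997), with 15.9% of genes called as higher and 17.1% as lower, near the 2 and 1 of 8 members. The groups overlapped for Ifih1 and Zbp1 and were separate for Mb21d1, which had only 3 UMIs over the 4 irradiated MC38 libraries. The 3 calls rest on 60 to 77 barcodes per MC38 library, mostly of cluster 18 in MC38 and of cluster 3 in Panc02-SIY. In cluster 18 the T cell markers Cd3d, Cd3g, Trac, Trbc2 and Cd8b1 were raised beside NK markers, and in cluster 3 only NK markers were. The 3 calls can therefore not show a difference between like cells. With repeated barcodes kept once none of the 3 was called, and Ifih1 was also lost without irradiated MC38 replicate 4. The Mb21d1 call was lost in 12 of 16 alternatives and the Zbp1 call in 13 of 27, both of them without untreated MC38 replicate 2 or 3 and without irradiated MC38 replicate 1, 2 or 4. Mb21d1 was also lost without irradiated MC38 replicate 3, and Zbp1 without untreated MC38 replicate 4 or irradiated Panc02-SIY replicate 2 or 3.

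Populations chosen for testing after the data were seen gave few further changes. DESeq2 was not run in these populations or in clusters 6 and 9. In Panc02-SIY neutrophils 0 of 6 members were called by edgeR and 0 had an unadjusted p below 0.05, where 0.0190% of genes were called. Ddx58 was at 139, 193, 214 and 192 CPM in untreated and 222.5, 179, 185 and 259.8 CPM in irradiated neutrophils (log2 difference 0.19, SE 0.18). Zbp1 differed by 0.08 (SE 0.19) and Ifih1 by 0.12 (SE 0.17). In monocytes 0 of 8 were called, with 0.407% of genes called, and 4 had an unadjusted p below 0.05: Ifih1 (0.58, SE 0.23, adjusted p = 0.415), Dhx58 (0.55, SE 0.24, adjusted p = 0.445), Tmem173 (0.53, SE 0.23, adjusted p = 0.462) and Irf3 (-0.51, SE 0.25, adjusted p = 0.504). In cluster 4, led by S1pr1, Ly6c2 and Tcf7 with T cell markers raised, Ddx58 rose in Panc02-SIY (log2 fold change 0.43, SE 0.13, adjusted p = 0.0760, 2.56% of genes called as higher). In cluster 20, led by Tnfrsf4 and Ikzf2 with Foxp3 among its leading genes, Tmem173 was lower in untreated MC38 than in untreated Panc02-SIY (-1.87, SE 0.47, adjusted p = 0.0245, 2.41% called as lower), with 3 MC38 libraries that held enough barcodes. These had 12, 20 and 14 barcodes and 7 Tmem173 UMIs in all. Over the 5 MC38 libraries of both arms with enough barcodes, Tmem173 ranged from 19.1 to 115.6 CPM without TMM scaling (mean 69.9 ± 43.7). Too few irradiated MC38 libraries held enough barcodes for a test of radiation in MC38. In Panc02-SIY, radiation called 0 of 6 members in cluster 20, with 0.232% of genes called. Tmem173 had an unadjusted p below 0.05, at 154 to 204 CPM in untreated and 91.1 to 147 CPM in irradiated libraries. Ddx58 was at 25.7 to 73.7 and at 78.7 to 114.6 CPM.

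Other genes of the pathway came from lists written alongside the members and were read over all CD45+ cells, where 2.74% of all genes were called as higher in irradiated MC38, and 8.57% as higher and 7.90% as lower in irradiated Panc02-SIY. Of 17 other RNA sensors, 4 rose in irradiated MC38 and 12 in irradiated Panc02-SIY and 0 fell in either, with median log2 changes of 0.22 and 0.74 against 0.03 and -0.03 over all genes. Oas2, which makes the 2-5A messenger of RNase L, rose from 20.8 ± 1.24 to 31.4 ± 2.25 CPM in MC38 (log2 fold change 0.60, SE 0.12) and from 5.04 ± 0.410 to 13.3 ± 2.70 CPM in Panc02-SIY (1.39, SE 0.13). Its effect was smaller in MC38 by an interaction of -0.79 (SE 0.17, adjusted p = 0.0468). Ifit1 rose from 92.7 ± 14.2 to 169 ± 11.6 CPM in MC38. Of the 14 tested other DNA sensors, 4 rose in MC38 and 5 rose and 1 fell in Panc02-SIY. The AIM2-family gene Ifi205 rose from 139 ± 41.0 to 249 ± 52.0 CPM in MC38 and from 23.9 ± 6.06 to 83.9 ± 24.0 CPM in Panc02-SIY.

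Among 25 signaling partners, 3 rose in MC38 (2.74% of all genes) and 7 in Panc02-SIY (8.57% of all genes). Irf7, the inducible relative of Irf3, went from 439 ± 53.6 to 604 ± 79.1 CPM in MC38 and from 56.9 ± 3.12 to 99.5 ± 22.7 CPM in Panc02-SIY. Untreated MC38 exceeded untreated Panc02-SIY in Irf7 by a log2 fold change of 2.95 (SE 0.15), opposite in sign to Irf3. Of 18 nucleases and brakes, 3 rose in MC38, and 1 rose and 4 fell in Panc02-SIY, where 8.57% and 7.90% of all genes did. The single rise is below the background share. The nucleotide hydrolase Samhd1 rose in both, from 509.9 ± 93.5 to 713 ± 27.7 CPM and from 406 ± 40.5 to 805 ± 110.4 CPM, while Rnaseh2b, a subunit of RNase H2, fell in Panc02-SIY from 37.7 ± 8.27 to 21.9 ± 4.09 CPM. Of the 8 tested interferon and target genes, 4 rose in MC38 and 7 in Panc02-SIY, against the same 2.74% and 8.57% of all genes. Mx1 rose from 61.3 ± 6.96 to 117 ± 13.4 CPM and from 8.30 ± 3.44 to 22.3 ± 3.55 CPM. The interferon genes themselves were almost undetected: Ifnb1 had 31 UMIs in 17 of 28678 barcodes (15 UMIs in untreated and 4 in irradiated MC38, 0 and 12 in Panc02-SIY), Ifna4 had 1, and the other 8 interferon genes listed had 0, which is too few for a statement on their change.

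The genes whose levels ran most like each member were sought over 28 class-by-group mean values, which share libraries and depth, so that the correlations are descriptions. For Zbp1 they were Cxcl10 (Pearson r = 0.884 of log2(CPM + 1)), Ifit1 (0.858) and Xaf1 (0.855). For Ifih1 they were Trafd1 (0.952), Mcemp1 (0.942) and Trem1 (0.919), and for Dhx58 they were Pnp (0.921), Fcgr1 (0.918) and Ms4a6c (0.916). In the DNA route, Tmem173 ran most like Aph1a (0.873), Enox2 (0.860) and H2-M3 (0.855), and Mb21d1 like Rap2a (0.83), Bak1 (0.815) and Rps6ka4 (0.772). Irf3 had the highest values of all, with Pnisr (0.970), Tnrc6c (0.969) and Thoc2 (0.969). For Tbk1 the leading gene was Nudt4 (0.854), and for Mavs it was Ppcs (0.83).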

How the data were processed

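The deposited values are raw UMI counts per barcode and gene, which the authors made per library with Cell Ranger 3.1.0 and bcl2fastq 2.20.0 on mm10, per the labels. The annotation is not given in the sources used here, and an aggregated matrix was not used. All 28678 barcodes were kept. Clusters came from scanpy 1.11.5 and leidenalg 0.10.2 (2000 variable genes without the members, 30 components, 20 neighbors, resolution 1), and 32 clusters were named from markers, with 30.97% of barcodes left unnamed. UMIs were summed per library over all cells and over classes with at least 10 barcodes in at least 3 libraries of each group. Populations added after the data were seen needed this only in both groups of a tumor, and groups with fewer libraries were left out. Neutrophils, monocytes and clusters 4 and 9 were thus fitted in Panc02-SIY alone. Cluster 6 was fitted in MC38 alone, and cluster 20 without irradiated MC38. All other sums were fitted over all 4 groups. The fits used edgeR 4.0.16 in R 4.3.3 (TMM, filterByExpr, robust quasi-likelihood, Benjamini-Hochberg adjustment over all genes). For the cDC set with Zbtb46 the filter's minimum count was 3, and 10 elsewhere, with a total of 15.

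Total UMIs per library ranged from 3240877 to 43776342. Replicate libraries differed by more than counting noise. The script was tested on simulated data with independent libraries, which cannot speak for the MC38 libraries that share barcodes. Alternatives were DESeq2 1.42.0, RLE scaling, no filter, an adjusted p below 0.05, only the 2 groups compared, a replicate block, the richest library per barcode, 5% of barcodes with the highest doublet scores removed, a cell filter (at least 500 genes, at most 10% mitochondrial UMIs), thinning to 2520 UMIs per barcode on average, resolution 2, leaving out each library and, added later, leaving out neutrophils and monocytes or 1 cDC subset. Doublets were kept otherwise. The members and lists were chosen with earlier results of these data known. The text names all 10 members, up to 3 called genes per pathway list and comparison with the smallest p, and the 3 genes most like a member, which are not reported here for Ddx58.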

Additional observations from a re-analysis of the deposited data

Results flagged for a closer look

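The 4 libraries of a group were screened for 1 that stood apart (a gap to the nearest other library above Dixon's 95% critical value) in 180 sets of a member, a population and a group. This gave 11 such values, where chance gives about 1 in 20 sets. Over all CD45+ cells, Zbp1 in irradiated Panc02-SIY replicate 4 was at 213 CPM against 152 to 160.3 in the others, and this library decided the call given in the report. In NK cells the same library was high for Ddx58 (119.6 CPM against 75.5 to 79.7) and Irf3 (42.0 against 36.0 to 37.0). In MC38 T cells Ifih1 was at 64.0 CPM in untreated replicate 4 and at 15.3 to 18.1 in the others. In irradiated MC38 NK cells Ifih1 was at 76.4 CPM in replicate 4 (others 24.2 to 31.8), Mavs at 15.01 in replicate 3 (others 0), and Zbp1 at 105 in replicate 3 (others 191 to 205). In irradiated Panc02-SIY replicate 2, Ifih1 was at 205 CPM in macrophages (others 87.8 to 100.2) and Irf3 at 38.6 in cDCs (others 30.9 to 31.5). In irradiated MC38 cDCs Mavs was at 0 CPM in replicate 2 (others 7.36 to 8.51) and Zbp1 at 259 in replicate 3 (others 177 to 189.7). The causes were not tested.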

How the results depend on the processing

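Of 427 alternative values of 15 counts of called members, 388 were within 1.5 times the reported count, and of 44 member tests called, 23 kept their call under every alternative run and 0 reversed. Over all CD45+ cells, leaving out neutrophils and monocytes (chosen after the data were seen) gave 1 call in place of 4 for radiation in Panc02-SIY, and every other alternative stayed within 1.5 times. Ddx58 in MC38 was also lost with no filter and with only the 2 groups compared. With the replicate block these counts were 3 for MC38, 4 for Panc02-SIY, 6 and 6 between tumors and 0 for the interaction, as without it. Same-numbered libraries correlated at -0.15 to 0.74 between the Panc02-SIY arms and at -0.03 to 0.09 between the MC38 arms, so the numbers were not taken as pairs.

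Within classes, the 4 calls for radiation in Panc02-SIY became 1 at an adjusted p below 0.05, 7 with DESeq2, 8 with no filter, 1 with only the 2 groups compared, 2 with the cell filter (3 of 4 classes could be fitted) and 2 after thinning, and 1 to 5 when 1 library was left out. The 3 calls in MC38 became 0 to 3 when 1 library was left out. The 7 calls between untreated tumors became 4 with the cell filter and 4 at resolution 2 (3 classes each), and the 6 between irradiated tumors became 3 at an adjusted p below 0.05, 2 with the richest library per barcode (3 classes), 3 after thinning and 2 to 6 when 1 library was left out. In the Zbtb46 set, all barcodes of the clusters gave 2 calls in place of 1 for radiation in Panc02-SIY and 4 in place of 2 between untreated tumors, where thinning gave 1 and leaving out 1 library 1 to 3. Between irradiated tumors 1 in place of 0 was called with only the 2 groups compared, and 0 to 1 when 1 library was left out. Without DC2-like barcodes in cDCs (chosen after the data were seen) the class counts became 2 for radiation in Panc02-SIY and 10 between irradiated tumors, and those of the Zbtb46 set 0 and 3. Without DC1-like barcodes they became 2 for radiation in Panc02-SIY and 4 between untreated tumors, and 0 and 0 in the Zbtb46 set. With the cell filter and at resolution 2, the class that could not be fitted in these counts was the macrophages. Causes other than classes that could not be fitted were not tested. Members at a few UMIs per library, such as Mavs and Mb21d1 in Zbtb46-positive cDCs of MC38 and Mb21d1 in B cells, are limited by counting error.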
